A study of Homo sapiens with 6 samples.

Results

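The 39 protein-coding HOX genes of the human genome encode homeodomain transcription factors and lie in 4 clusters. They were taken from the deposited expression table by Entrez identifier, as every gene whose symbol is HOXA, HOXB, HOXC or HOXD followed by a number, with antisense genes left out. All 39 were among the 19484 gene entries of the table, with 11 in HOXA, 10 in HOXB, 9 in HOXC and 9 in HOXD. Of these, 30 had values and 9 had none.

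RNA was sequenced from Ls174t, a human colorectal adenocarcinoma cell line that secretes mucin. The vector group carried the empty vector and the RNF186 group was a stable line overexpressing RNF186, which attaches ubiquitin to other proteins and is made in gut epithelium. Each line was split over 3 dishes of 6 cm and collected untreated after 48 h of culture in DMEM that held 10% serum and 1% antibiotics. Each group is therefore 1 line in 3 dishes, so p-values measure the spread between dishes of a line, and effects of RNF186 cannot be told apart from other differences between the lines.

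HOX genes set the identity of body segments along the head-to-tail axis, and within a cluster they lie in the order in which they act along that axis. Members with low numbers act towards the head and members with high numbers towards the tail. The gut tube uses them in the same order, with the highest numbers in the hindgut, from which the colon forms. HOX proteins bind DNA together with cofactors of the TALE class, PBX and MEIS, and their clusters are held silent by Polycomb and kept active by Trithorax and MLL complexes. In embryos, retinoic acid and CDX factors switch on parts of the clusters, and CTCF with cohesin separates active from silent stretches.

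Values are given in FPKM, a density of reads for each kilobase of a gene that allows for the size of the library, so levels of different genes can be set side by side. RNF186 itself was at 0.67 ± 0.0529 FPKM in the vector libraries and at 505 ± 65.2 FPKM in the RNF186 libraries (SD, n = 3 each). Summed FPKM was 398674.4 to 412391.1 in the vector libraries and 387477.6 to 396199.9 with RNF186. All 16 markers of colon epithelium reached 1 FPKM, with a summed level of 7302.7 to 7972.6 FPKM with vector and 5903.9 to 6446.1 FPKM with RNF186. Of 10 fibroblast markers 8 had values and 0 of these reached 1 FPKM (summed 0.07 to 0.16 FPKM over all libraries). Of 8 blood cell markers 3 did (PTPRC, CD14 and LYZ; HBB and CD34 were at 0), with a summed 19 to 20.2 FPKM with vector and 21.9 to 23.3 FPKM with RNF186, and of 8 neural markers, 5 with values, only SYP did, with a summed 2.5 to 3.02 FPKM with vector and 2.22 to 2.38 FPKM with RNF186. The part of these shifts between groups in the HOX values was not tested. RNF186 replicate 2 stood apart from the other 5 libraries on the second principal component, which held 10.1% of the variance.

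HOXA was the cluster that was on. The FPKM of its 11 genes summed to 87.71, 93.79 and 90.69 in the vector libraries and to 112.16, 106.03 and 113.66 in the RNF186 libraries. It held 97.7 to 97.9% of all HOX FPKM with vector and 96.2 to 97.2% with RNF186. HOXB summed to 1.64 ± 0.171 FPKM with vector (SD, n = 3), and most of that was HOXB13. With RNF186 it summed to 2.17 ± 0.391 FPKM, and the groups overlapped. HOXC summed to 0.27, 0.41 and 0.54 FPKM with vector and to 1.73, 1.35 and 1.97 FPKM with RNF186, without overlap but at a low level. HOXD summed to at most 0.19 FPKM in any library. Averaged over the 6 libraries, 8 genes reached 1 FPKM: HOXA5, HOXA6, HOXA7, HOXA9, HOXA10, HOXA11, HOXA13 and HOXB13. HOXB13 lay just inside that limit, at a mean of 1.05 FPKM, and HOXC4 just outside, at 0.675 FPKM.

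HOXA9 was the highest HOX gene in both groups, and its mean level stood at the 85.5th percentile of the 11632 genes at or above 1 FPKM. Among the 8 genes that reached a mean of 1 FPKM, the levels in the vector libraries fell in the order HOXA9, HOXA10, HOXA13, HOXA11, HOXA7, HOXA5, HOXB13 and HOXA6, and no neighbours in that order overlapped in range. With RNF186 the order was HOXA9, HOXA10, HOXA7, HOXA13, HOXA11, HOXA5, HOXA6 and HOXB13, and only HOXA7 and HOXA13 overlapped. Among these 8, HOXA7 and HOXA6 thus stood higher in the order with RNF186 and HOXB13 stood last. HOXC4 and HOXA3, which did not reach that mean, were above HOXB13 with RNF186, at 1.08 and 0.863 FPKM against 0.823 FPKM.

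**Figure D1:**
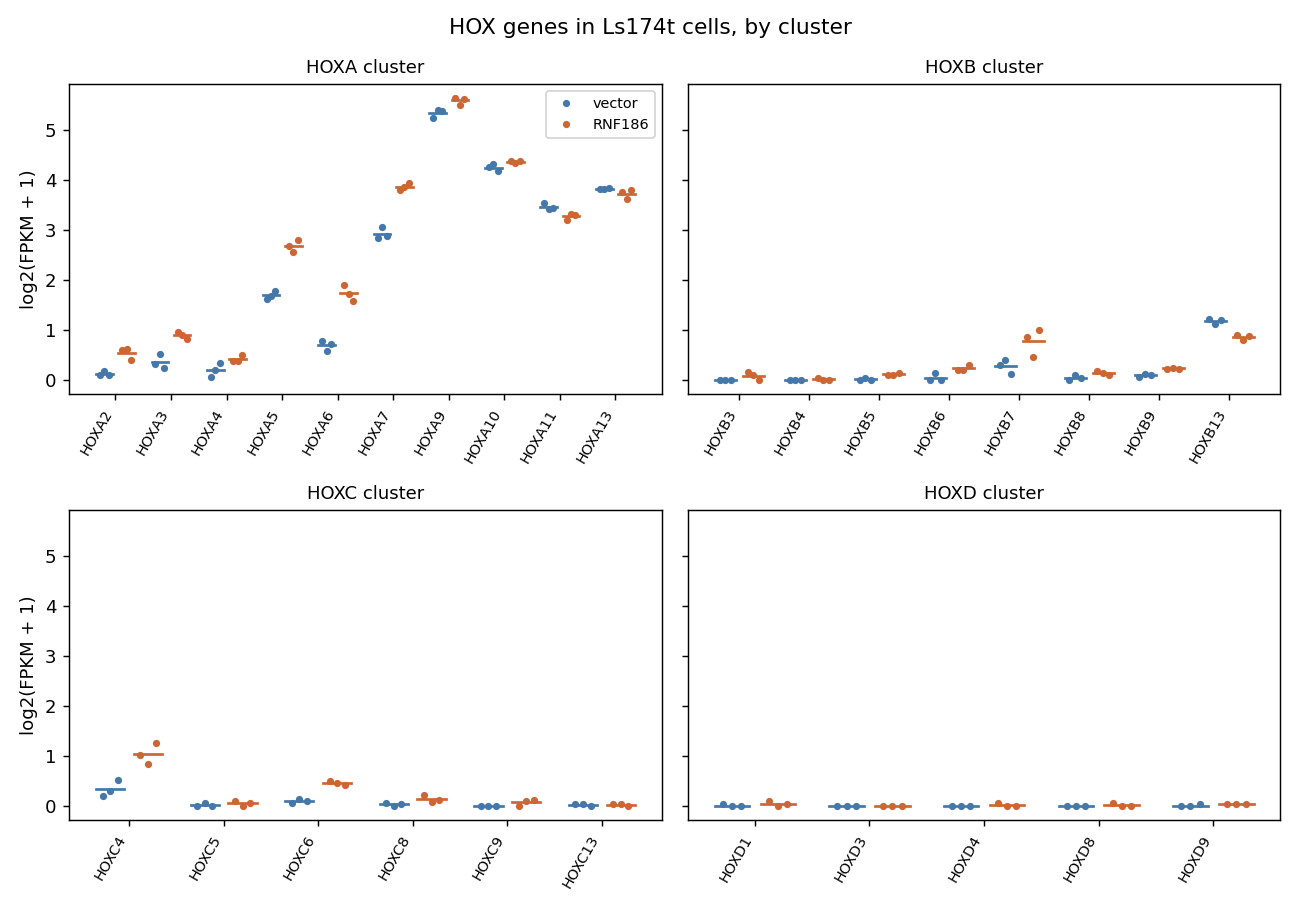
Level of 29 HOX genes with values as log2(FPKM + 1), 1 panel per cluster, with genes in order of their number; each point is a library (blue vector, orange RNF186, 3 each) and each bar the group mean. HOXA5 to HOXA13 and HOXB13 hold the highest means over the 6 libraries, HOXC4 and HOXB7 reach 1.40 and 1.00 FPKM with RNF186, and the HOXD panel holds no value above 0.07 FPKM.

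HOXA6 and HOXA7 lie near the boundary between the low-numbered and the high-numbered part of the HOXA cluster. The sequences just upstream of them are shown with those of HOXA9 and HOXA13, which lie further towards the high-numbered end. They come from RefSeq, build GRCh38.p14, read 5′ to 3′ on the gene's strand up to the annotated start, less any bases inside a GENCODE release 29 exon. The HOXA6 and HOXA9 stretches are the 250 bases before the start. For HOXA7 171 bases and for HOXA13 235 bases of that window were free of exons. Capitals mark a match to a motif.
HOXA6 promoter, chr7:27147775-27148024, minus strand: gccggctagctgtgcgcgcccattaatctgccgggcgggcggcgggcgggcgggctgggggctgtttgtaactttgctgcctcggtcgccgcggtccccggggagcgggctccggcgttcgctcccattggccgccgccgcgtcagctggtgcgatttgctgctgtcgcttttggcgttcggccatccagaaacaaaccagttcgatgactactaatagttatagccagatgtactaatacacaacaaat
HOXA7 promoter, chr7:27156755-27156925, minus strand: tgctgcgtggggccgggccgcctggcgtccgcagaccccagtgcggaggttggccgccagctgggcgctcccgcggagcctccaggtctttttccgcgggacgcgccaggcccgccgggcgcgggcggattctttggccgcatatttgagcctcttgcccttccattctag
HOXA9 promoter, chr7:27165538-27165787, minus strand: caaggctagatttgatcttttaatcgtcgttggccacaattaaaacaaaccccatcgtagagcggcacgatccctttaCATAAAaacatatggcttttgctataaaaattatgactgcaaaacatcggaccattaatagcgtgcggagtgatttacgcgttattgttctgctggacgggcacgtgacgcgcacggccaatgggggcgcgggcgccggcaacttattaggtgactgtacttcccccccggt
HOXA13 promoter, chr7:27200107-27200341, minus strand: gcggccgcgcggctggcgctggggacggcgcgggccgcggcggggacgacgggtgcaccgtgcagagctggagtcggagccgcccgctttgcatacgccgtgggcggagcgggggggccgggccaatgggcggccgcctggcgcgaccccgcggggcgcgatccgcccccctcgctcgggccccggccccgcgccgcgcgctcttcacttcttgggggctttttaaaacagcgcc
The motifs searched on both strands were a CDX site (TTTATG), a PBX-HOX site (TGATNNAT), a TCF/LEF site (CTTTGAT) and a retinoic acid receptor core site (AGGTCA). A CDX site occurred in 9.65% of the 34788 human promoters of the same length, a PBX-HOX site in 6.49%, a TCF/LEF site in 2.27% and the core site in 12%. The window of HOXA9 held a CDX site in reverse (CATAAA), 172 to 167 bases before the start and overlapping no other match, and the windows of HOXA6, HOXA7 and HOXA13 held none of these letter strings. GC content of the whole window was 62% at HOXA6, 70.8% at HOXA7, 48.8% at HOXA9 and 78% at HOXA13, with 27, 28, 20 and 40 CG dinucleotides. The table held promoters for 20 of the 39 HOX genes and none for HOXA5 and HOXB13.

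RNF186 and vector were compared with limma on log2(FPKM + 1) over all 11632 genes whose mean reached 1 FPKM, and genes with an adjusted p under 0.05 are called. Of the 8 HOX genes tested, 4 were called higher with RNF186 (HOXA5, HOXA6, HOXA7 and HOXA9), 2 lower (HOXA11 and HOXB13) and 2 not called (HOXA10 and HOXA13). Over all tested genes 19.9% were called higher and 18.9% lower, 38.8% in all. Higher genes made up 51.3% of all calls, 63.1% with libraries rescaled to TPM and 42.9% after a length and GC correction, while no scaling moved the median change of all genes by more than 0.04. The median change of the 8 was 0.18 on the log2 scale, against -0.00 over all tested genes. HOXA6 reached the limit of 1 FPKM only through the RNF186 group and HOXB13 only through the vector group, so these had to differ. Among the 6 with both group means at or above 1 FPKM, 3 were called higher, 1 lower and 2 not. In RNA from whole dishes, a change in the share of cells that use a gene and a change of RNA per cell cannot be told apart.

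HOXA5 (Entrez 3202), which in mice patterns the lung and the neck vertebrae, was at 2.07, 2.21 and 2.43 FPKM in the vector libraries and at 5.42, 4.90 and 5.98 FPKM in the RNF186 libraries. Every RNF186 library was above every vector library, and the groups were well separated. The ratio of means was 2.43 and the log2 change 0.99 (SE 0.084, 95% interval 0.80 to 1.18; limma, adjusted p = 1.59e-05). HOXA5 shares no exon base with another gene of the annotation used here. The build behind the values is uncertain, and whether reads of other genes entered the HOXA5 values was not tested.

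HOXA6 (3203), the next gene of the cluster, was at 0.72, 0.49 and 0.65 FPKM with vector and at 2.75, 2.30 and 2.01 FPKM with RNF186. The groups stood far apart, with every vector library below 1 FPKM. The ratio of means was 3.8 and the log2 change 1.05 (SE 0.1, 95% interval 0.82 to 1.28; limma, adjusted p = 4.63e-05). HOXA7 (3204), which neighbours HOXA6 and is used in trunk patterning in mice, was at 6.16, 7.35 and 6.35 FPKM with vector and at 12.82, 13.57 and 14.37 FPKM with RNF186. Here too the groups did not overlap, and the libraries of each group lay close together. The log2 change was 0.94 (SE 0.074, 95% interval 0.77 to 1.10) with a ratio of means of 2.05 (limma, adjusted p = 9.64e-06). A call in that direction with a change at least as large as that of HOXA7 was made for 1.56% of all tested genes. HOXA5 and HOXA7 stood at places 166 and 182 of 11632 by signed change. HOXA6 stood at place 142, but it reached the limit of 1 FPKM only through the RNF186 group. Its place therefore carries no weight.

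HOXA6 and HOXA7 differ from HOXA5 in what overlaps them. In GENCODE release 29, 39.3% of the HOXA6 exon bases and 62.5% of the HOXA7 exon bases also lie in exons of HOXA-AS3 on the opposite strand. The sources used here do not say whether counting used the strand, so reads of these genes and of the antisense gene cannot be told apart. HOXA6 and HOXA7 also share the longest identical stretch between a tested HOX gene and a HOX gene with which it has no exon base in common, 41 bases within the homeobox, at coding bases 502 to 542 of HOXA6 and 427 to 467 of HOXA7. It is shown because reads inside it could belong to either gene.
HOXA6 and HOXA7 shared coding stretch: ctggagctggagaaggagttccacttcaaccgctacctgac
For the other tested genes the longest such stretch was 20 to 34 bases, and the sources used here do not say how reads shared by similar genes were counted.

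HOXA9 (3205), a driver of leukaemia when overexpressed in blood progenitors, was at 36.61, 41.26 and 40.52 FPKM with vector and at 48.83, 44.05 and 48.27 FPKM with RNF186. The groups did not overlap, but the gap between the highest vector and the lowest RNF186 library was small. The ratio of means was 1.19 and the log2 change 0.25 (SE 0.061, 95% interval 0.11 to 0.38; limma, adjusted p = 0.00988). HOXA10 (3206), known for its role in the uterus, was at 18.08, 18.84 and 17.04 FPKM with vector and at 19.75, 19.27 and 19.67 FPKM with RNF186. Its groups did not overlap either, yet it was not called (log2 change 0.12, SE 0.053, 95% interval -0.00 to 0.24; limma, adjusted p = 0.113). With libraries rescaled to TPM, which makes each sum to the same total, it was called (log2 change 0.17; limma, adjusted p = 0.0453). Of the exon bases, 27% of HOXA9 and 26.3% of HOXA10 also lie in exons of other gene models.

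HOXA11 (3207), needed for limb and kidney formation in mice, was at 10.56, 9.74 and 9.83 FPKM with vector and at 8.23, 8.96 and 8.87 FPKM with RNF186. The RNF186 libraries were all below the vector libraries, with a ratio of means of 0.865. The log2 change was -0.19 (SE 0.061, 95% interval -0.33 to -0.05; limma, adjusted p = 0.0344). This call did not hold when vector replicate 1 (limma, adjusted p = 0.12), 2 (0.0693) or 3 (0.0654) or RNF186 replicate 1 (0.128) or 3 (0.0704) was left out, nor with TPM rescaling (0.0919) or the replicate number as a block (0.0715). Of its exon bases 31.1% also lie in exons of HOXA11-AS on the opposite strand.

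HOXA13 (3209), the last gene of the cluster and a factor of the hindgut and its outlet, was at 13.15, 13.15 and 13.27 FPKM with vector and at 12.57, 11.26 and 12.87 FPKM with RNF186. Every RNF186 library was below every vector library, and the RNF186 libraries were spread more widely. The gene was not called (log2 change -0.10, SE 0.061, 95% interval -0.24 to 0.03; limma, adjusted p = 0.212). It was called once library-specific trends with length and GC of the transcript were removed (log2 change -0.21; limma, adjusted p = 0.00321), an alternative chosen after seeing the data.

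HOXB13 (10481), the paralogue of HOXA13 in the HOXB cluster and a regulator of prostate and hindgut epithelium, was at 1.34, 1.19 and 1.29 FPKM with vector and at 0.87, 0.75 and 0.85 FPKM with RNF186. It was lower in every RNF186 library, without overlap. The vector mean was 1.55 times the RNF186 mean and the log2 change was -0.32 (SE 0.082, 95% interval -0.50 to -0.13; limma, adjusted p = 0.0132). HOXB13 shares no exon base with another gene and was the only HOXB gene to reach a mean of 1 FPKM.

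**Figure D2:**
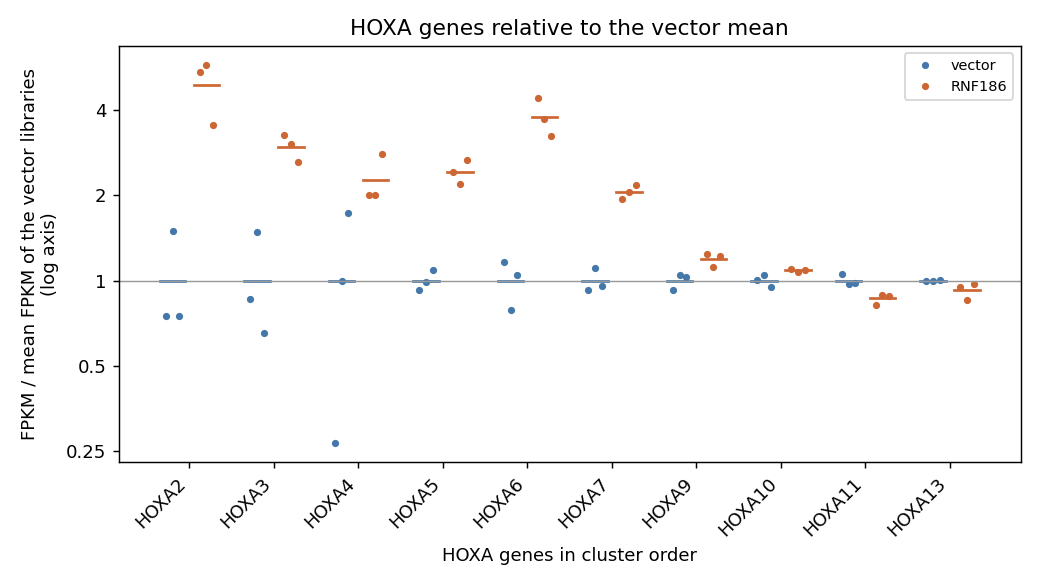
FPKM of HOXA2 to HOXA13 divided by the mean of its 3 vector libraries, on a log axis, with genes in cluster order (blue vector, orange RNF186; bars are group means). The RNF186 means stand at 2.05 to 4.93 from HOXA2 to HOXA7, at 1.19 and 1.09 for HOXA9 and HOXA10, and at 0.865 and 0.927 for HOXA11 and HOXA13.

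The HOXA cluster thus held a stretch from HOXA2 to HOXA7 that was higher with RNF186. Exons of HOXA3, HOXA4, HOXA6 and HOXA7 all overlap those of HOXA-AS3, so their values may not be separate measurements. In the high-numbered stretch the changes were smaller and went in both directions. This split was not set beforehand. HOXA2 to HOXA7 summed to 9.31, 10.77 and 9.95 FPKM with vector and to 22.75, 22.49 and 23.87 FPKM with RNF186, a ratio of means of 2.3. HOXA9 to HOXA13 summed to 80.7 ± 2.3 and 87.5 ± 3.46 FPKM (SD, n = 3 each), a ratio of 1.08. These sums did not overlap, with 82.99 FPKM the highest with vector and 83.54 FPKM the lowest with RNF186. HOXA2 to HOXA7 held 10.6, 11.5 and 11% of the HOXA sum with vector and 20.3, 21.2 and 21% with RNF186. The stretch was drawn after its changes were seen, so the lack of overlap in its sum and share adds no support. Most of its sum was HOXA7 and HOXA5, with means of 6.62 and 2.24 FPKM with vector and 13.6 and 5.43 FPKM with RNF186. Over the 10 genes from HOXA2 to HOXA13, Spearman's rho between the gene's number and its ratio of means was -0.90. This correlation is across genes of the same 6 libraries, which are not independent, and the genes at both ends also differ in level.

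Ratios between HOXA genes of the same library do not depend on how libraries were scaled. HOXA7 was at 0.168, 0.178 and 0.157 of HOXA9 with vector and at 0.263, 0.308 and 0.298 of it with RNF186. The ratio of HOXA7 to HOXA13 was 0.468, 0.559 and 0.479 with vector and 1.02, 1.21 and 1.12 with RNF186, so that HOXA7 passed HOXA13 in each RNF186 library. Relative to HOXA9, HOXA5 was higher by 2.03-fold and HOXA6 by 3.2-fold, while HOXA11 was at 0.725 and HOXA13 at 0.776 of the vector ratio. None of these ratios overlapped between groups, and each gave a two-sided exact permutation p of 0.1, the smallest that 3 against 3 allows. HOXA10 relative to HOXA9 overlapped (0.457 ± 0.0367 and 0.416 ± 0.0182, SD, n = 3 each; exact permutation p = 0.2). These ratios describe unequal change of the FPKM values within the cluster, not which gene of a pair moved. Trends with length or GC that differ between libraries do not cancel in such ratios, and their part was not tested.

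**Figure D3:**
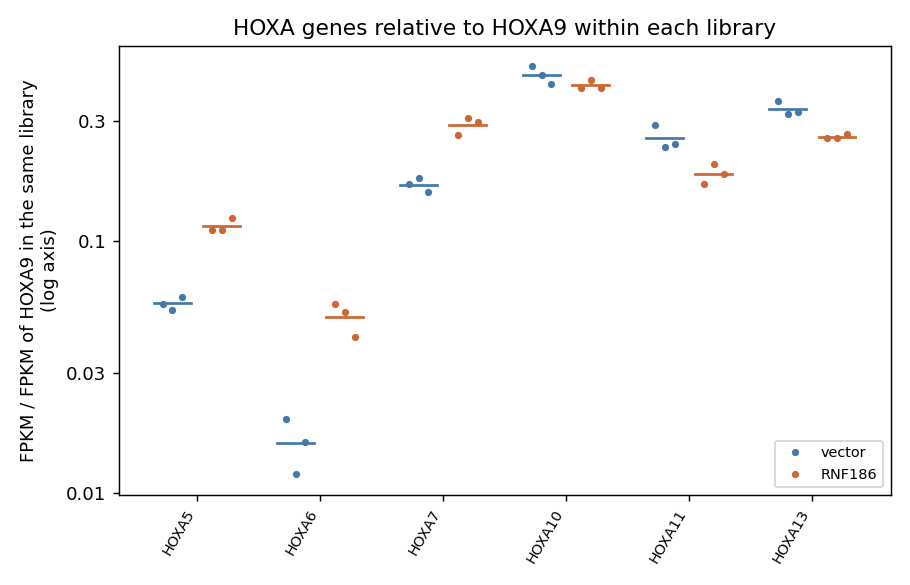
FPKM of 6 HOXA genes divided by that of HOXA9 in the same library, on a log axis (blue vector, orange RNF186; bars are group means). HOXA5, HOXA6 and HOXA7 lie higher with RNF186, HOXA11 and HOXA13 lower, and the HOXA10 points overlap.

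The other 22 HOX genes with values had a mean under 1 FPKM and were not tested in the main comparison. At these levels the number of reads behind a value is unknown, so small differences carry little weight. Of them, 16 were under 0.25 FPKM and 18 under 0.5 FPKM in every library. HOXD3 was listed at 0 in all libraries, and 6 genes were listed at 0 in the 3 vector libraries (HOXB3, HOXB4, HOXC9, HOXD3, HOXD4 and HOXD8). HOXB1, HOXB2, HOXC10, HOXC11, HOXC12, HOXD10, HOXD11, HOXD12 and HOXD13 had no value.

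HOXA2, which patterns the hindbrain and the middle ear, was at 0.07, 0.14 and 0.07 FPKM with vector and at 0.51, 0.54 and 0.33 FPKM with RNF186. HOXA3, which acts in thymus and parathyroid formation, was at 0.25, 0.43 and 0.19 FPKM with vector and at 0.95, 0.88 and 0.76 FPKM with RNF186. Both were higher in every RNF186 library, like their neighbours HOXA5 to HOXA7 on a higher level. HOXA4 was at 0.15 ± 0.11 FPKM with vector and 0.34 ± 0.0693 FPKM with RNF186. Of the exon bases, 17.9% of HOXA3 and 47.3% of HOXA4 also lie in exons of other gene models, and HOXA2 shares none.

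Outside HOXA, the largest values among these genes were those of HOXC4 and HOXB7. HOXC4, which is also active in lymphocytes, was at 0.15, 0.23 and 0.43 FPKM with vector and at 1.04, 0.80 and 1.40 FPKM with RNF186, a ratio of means of 4. HOXB7, a gene of trunk patterning, was at 0.23, 0.33 and 0.09 FPKM with vector and at 0.81, 0.38 and 1.00 FPKM with RNF186. In both the groups stood apart, but the lowest RNF186 value of HOXB7 was close to its highest vector value. HOXC6 was at 0.0767 ± 0.0351 and 0.38 ± 0.03 FPKM (SD, n = 3 each). HOXC4 and HOXC6 share 484 exon bases in the annotation, so their values are not separate measurements, and HOXB7 shares none.

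Of the 21 such genes above 0, 20 had a higher mean with RNF186, where 53.8% of the 5455 genes of that level did. In 10 the RNF186 libraries were all above the vector libraries, 3 in HOXA, 4 in HOXB and 3 in HOXC, and in 0 all below; over the genes of that level these shares were 12.4% and 5.17%. When limma was fitted without a limit on the level, 6 of them were called higher and 0 lower, against 7.94% and 2.86% of the genes of that level. The 6 were HOXA2 (limma, adjusted p = 0.0115), HOXA3 (0.0104), HOXB5 (0.0256), HOXB9 (0.00615), HOXC4 (0.0201) and HOXC6 (0.00176), while HOXB7 (0.0837) and HOXA4 (0.109) were not called. No HOXD gene was higher in every RNF186 library, and none exceeded 0.07 FPKM.

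**Figure D4:**
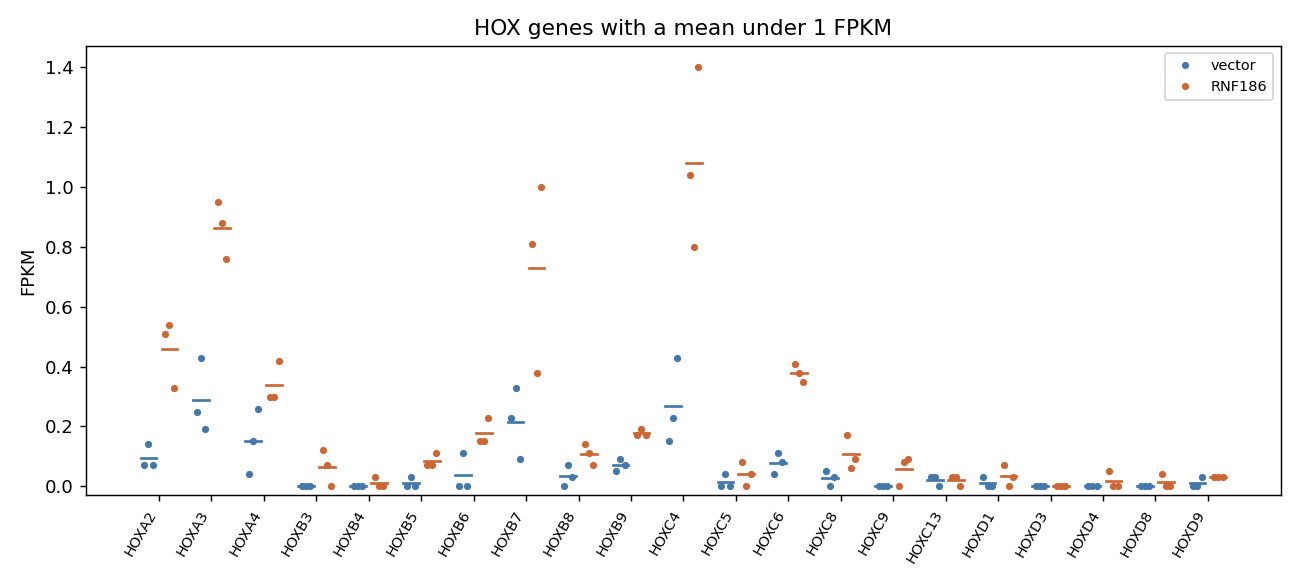
FPKM of 21 HOX genes with values and a mean under 1 FPKM, by cluster and number (blue vector, orange RNF186, 3 libraries each; bars are group means). HOXC4, HOXA3, HOXB7 and HOXA2 are the only ones to reach 0.5 FPKM in a library, in each case with RNF186.

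Read by number across the clusters, the genes that were higher without overlap were mostly middle members. Of the 15 genes numbered 4 to 8, all with values, every one had a higher mean with RNF186 and 10 were higher without overlap. A higher mean was seen in 53.8% of all genes under 1 FPKM and above 0. HOXB4, HOXD4 and HOXD8 were above 0 in RNF186 replicate 1 only, and HOXC4 and HOXC6, both among the 10, share exon bases. Of the 8 genes numbered 1 to 3, 6 had values and 2 of these were higher without overlap. Of the 16 genes numbered 9 to 13, 9 had values, with 3 higher without overlap, 3 lower without overlap and 3 overlapping. Most of these genes, 22 of the 30 with values, were under 1 FPKM, where 12.4% of genes were higher without overlap and 5.17% lower. Among the tested genes, at or above 1 FPKM, these shares were 25.7% and 23.8%. The difference between the number classes was not tested.

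TALE proteins are the DNA-binding partners of HOX proteins. Among them, PKNOX1 was lower, with a log2 change of -0.18 (limma, adjusted p = 0.0452), a call that was lost on leaving out vector replicate 1 (0.0929), 2 (0.0825) or 3 (0.144) or RNF186 replicate 1 (0.0544) or 3 (0.163), and also with TPM rescaling (0.141), no filter (0.0591) or the replicate block (0.0856). MEIS1, named after its values were seen, was under 1 FPKM in both groups. Results for the rest of this list are not reported here, so its direction cannot be read from PKNOX1.

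Among ParaHox and EVX genes 3 were tested, 1 called higher and 0 lower. CDX2, the intestinal master regulator that activates HOX genes in mouse embryos, was at 11.94, 11.09 and 10.54 FPKM with vector and at 13.03, 13.43 and 12.75 FPKM with RNF186. The log2 change was 0.21 (SE 0.06; limma, adjusted p = 0.0217), and the call was lost on leaving out vector replicate 2 (0.0746) or 3 (0.0842), or RNF186 replicate 1 (0.058).

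Of 32 tested Polycomb genes 9 were called higher, 3 lower and 20 not, with a median log2 change of 0.07. Over all tested genes 19.9% were called higher and 18.9% lower, and the counts of each list are to be read beside these shares. PHC2, a subunit of the PRC1 complex, had a log2 change of 0.30 (limma, adjusted p = 0.00106) and PCGF3, another PRC1 subunit, one of 0.28 (0.0021). RBBP4, a histone-binding subunit of PRC2, was higher by 0.23 (0.00304), while PCGF1 was lower, with a change of -0.35 (0.00161). EZH2, the methyltransferase of PRC2, named after its values were seen, was at 30.4 ± 1.52 FPKM with vector and 35.2 ± 0.0493 FPKM with RNF186, a log2 change of 0.21 (limma, adjusted p = 0.00961) that was not called without vector replicate 2 (0.0525) or after the length and GC correction (0.059). Of 23 Trithorax and MLL genes 2 were called higher, 4 lower and 17 not, with a median of -0.05. MLLT3, a partner of MLL in leukaemia fusions, was higher (log2 change 0.41; limma, adjusted p = 0.000764) and HCFC1, a subunit of MLL and SET1 complexes, lower (-0.35, 0.00446). PSIP1, which tethers MLL to chromatin, was higher (0.26, 0.0127) but lost its call on leaving out vector replicate 1 (0.0506) or, from the RNF186 group, replicate 1 (0.0502) or 3 (0.0518), and with no filter (0.0648). CXXC1, of the SET1 complex, was lower (-0.20, 0.0158) but lost its call on leaving out vector replicate 2 (0.0587) or 3 (0.0514) or, from the RNF186 group, replicate 1 (0.0677) or 3 (0.0532), and after the length and GC correction or TPM rescaling.

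Retinoic acid switches on the low-numbered end of HOX clusters in embryos and in cultured embryonal carcinoma cells. Of 12 tested genes of its pathway 4 were called higher, 4 lower and 4 not, with a median log2 change of -0.02. STRA6, the cell-surface receptor that takes up retinol, was at 0.44, 0.62 and 0.59 FPKM with vector and at 2.02, 2.24 and 1.97 FPKM with RNF186. ALDH1A1, which makes retinoic acid, was at 18.71, 16.27 and 16.68 FPKM with vector and at 27.30, 26.26 and 25.69 FPKM with RNF186. Both were higher in every RNF186 library, with log2 changes of 0.99 and 0.59 (limma, adjusted p = 2.15e-05 and 6.24e-05), and STRA6 reached the limit of 1 FPKM only through the RNF186 group. RARG, a retinoic acid receptor, was lower (log2 change -0.42; limma, adjusted p = 0.0014), as was FABP5, a carrier of fatty acids and retinoic acid (-0.33, 0.00031).

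CTCF and cohesin hold the boundaries of chromatin domains, among them those within the HOXA cluster. Of 11 tested genes 0 were called higher, 2 lower and 9 not, with a median log2 change of -0.01. CTCF was at 43.92, 42.90 and 44.67 FPKM with vector and at 31.85, 30.10 and 33.63 FPKM with RNF186. All RNF186 libraries were lower, with a log2 change of -0.45 (SE 0.052; limma, adjusted p = 0.000136) and a ratio of means of 0.727. RAD21, a cohesin subunit, was lower too (-0.18; limma, adjusted p = 0.0178), but not called without vector replicate 2 (0.053) or 3 (0.0747), nor with TPM rescaling (0.0945) or quantile normalization (0.056).

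Genes that border the clusters did not move as a block. Of 13 tested neighbours 4 were called higher, 4 lower and 5 not, with a median log2 change of 0.03. SKAP2, the next coding gene at the low-numbered end of HOXA, was at 13.45, 14.77 and 14.14 FPKM with vector and at 15.35, 15.07 and 16.39 FPKM with RNF186. Its groups did not overlap, but it was not called (log2 change 0.14, SE 0.058; limma, adjusted p = 0.0928), except with TPM rescaling (0.0491), with library weights (0.0378) or without RNF186 replicate 2 (0.0438). EVX1, the next coding gene beyond HOXA13, was at 0.08 ± 0.04 and 0.1 ± 0.0458 FPKM, with overlap. At HOXB, SKAP1 was at 0.12, 0.08 and 0.16 FPKM with vector and at 0.41, 0.48 and 0.45 FPKM with RNF186, too low to be tested, and PRAC1, a gut and prostate gene next to HOXB13, was at 0 in 4 of 6 libraries. Near HOXC, CBX5 was lower (log2 change -0.33; limma, adjusted p = 0.0021). Near HOXD, LNPK was higher (0.26, 0.00671), as was MTX2 (0.18, 0.0116), which was not called without RNF186 replicate 3 (0.051). ATP5MC2, near HOXC, was higher (0.19, 0.0181) and lost its call on leaving out vector replicate 2 (0.0871) or 3 (0.0636), or the RNF186 library of number 3 (0.0734), and with no filter (0.0572).

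**Figure D5:**
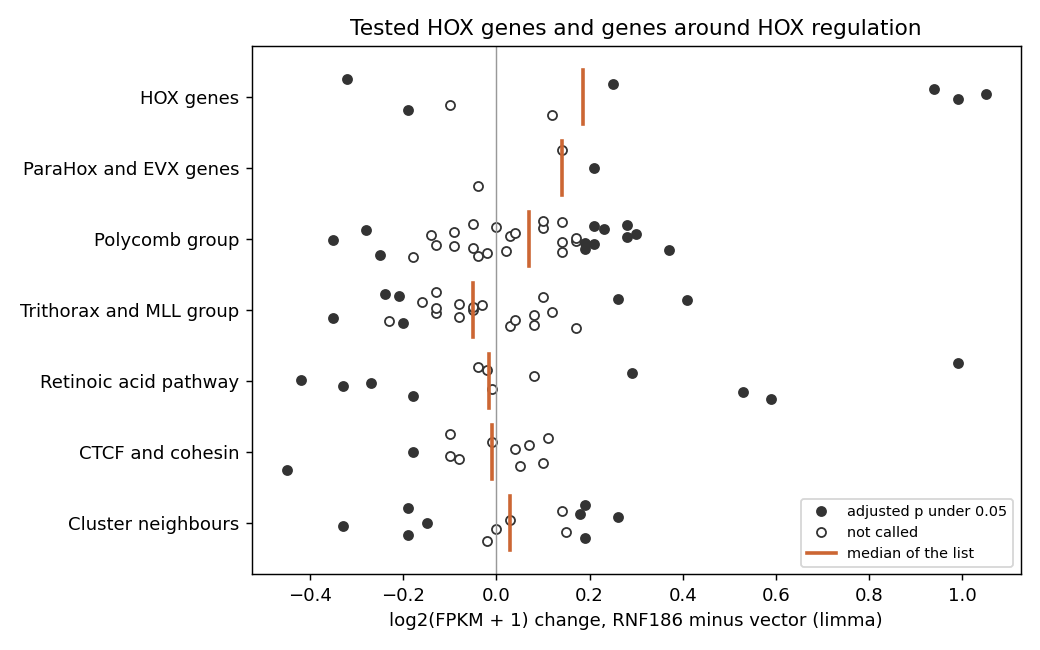
Log2(FPKM + 1) change, RNF186 minus vector, of the 8 tested HOX genes and of the tested genes of 6 lists around HOX regulation; filled points are called at an adjusted p under 0.05 (limma) and orange bars are medians. HOXA5, HOXA6 and HOXA7 lie between 0.94 and 1.05, where STRA6 is the only list gene, and CTCF is the lowest point.

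Over all lists around HOX regulation, 99 genes were tested, 21 called higher and 18 lower, with a median change of 0.02. These shares lie near the 19.9% higher and 18.9% lower of all tested genes.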

How the data were processed

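RNA-seq of 3 vector and 3 RNF186 libraries of Ls174t cells was used. The authors deposited 1 table of FPKM per gene, given to 2 decimals and keyed by Entrez identifier. The submitters' processing notes name Bowtie 0.12.2 and the mouse builds mm8 and mm9, which contradicts the human labels and gene identifiers. The extraction protocol speaks of retinas, so the build behind the values is uncertain. The counting program is not given. Without counts the depth of the libraries is unknown, and low values carry no counting interval.

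Of 19485 table lines, 1 named no gene, 1921 had no values and 17563 had values. Symbols and gene order came from the RefSeq table of GRCh38.p14, matched by identifier for 17524 of these. Exon overlap, length and GC came from GENCODE release 29. Promoter letters are those of RefSeq, and motifs were matched exactly.

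Changes are on log2(FPKM + 1), which understates those of low genes. Groups were compared by limma 3.58.1 in R 4.3.3 with a mean-variance trend, two-sided, and Benjamini-Hochberg adjustment over all 11632 tested genes. Exact permutation tests of 3 against 3 cannot go below 0.1. Replicate numbers come from the sample titles, which do not say that a number marks a shared day or batch, so no pairing was used. Same-numbered libraries showed no consistent shared deviation. The procedure was tested on simulated data.

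The HOX genes, the lists of related genes and the markers were chosen with earlier results of these data known. Results for some genes are not reported here. Named are the HOX genes (those under 1 FPKM by counts, and by value where a library reached 0.5 FPKM), RNF186, 7 cluster neighbours, and from each list up to 4 called genes with the smallest p, or its 2 highest genes. Any other gene named was chosen after its values were seen, among them HOXA4 and HOXC6, with EZH2 and MEIS1. Alternatives were other pseudocounts, filters, scalings, variance models, weights, a replicate block, a stricter threshold and leaving out each library, and a length and GC correction was added after seeing the data.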

Additional observations from a re-analysis of the deposited data

How the results depend on the processing

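HOXA5, HOXA6, HOXA7 and HOXA9 were called higher under each alternative in which they were tested, with log2 changes of 0.93 to 1.24, 0.93 to 1.77, 0.90 to 1.04 and 0.20 to 0.30. HOXB13 stayed lower, between -0.57 and -0.27, and no named change reversed its sign. In the main comparison HOXA6 was tested only through its RNF186 group and HOXB13 only through its vector group. With a mean of at least 5 FPKM fewer HOX genes were tested, and 2 were called higher and 1 lower. Over all genes of that level 1766 were called higher and 1934 lower. With no filter 10 of the 30 HOX genes with values were called higher and 2 lower. Over all 17563 genes with values these counts were 2406 and 1690. HOX genes called lower came to 1 with TPM rescaling, to 0 at an adjusted p under 0.01, where HOXA11 (0.0344) and HOXB13 (0.0132) both lost their calls, and to 1 to 2 when libraries were left out in turn, where HOXA11 was the call that was lost. A cause for these shifts beyond the number of genes or libraries used was not tested. Over all genes, 1465 were called higher and 1121 lower at an adjusted p under 0.01, and leaving out libraries gave 1720 to 2724 higher and 1435 to 2945 lower, with both upper values reached without RNF186 replicate 2 and the lowest count of lower calls without RNF186 replicate 3. For genes around HOX regulation, TPM rescaling left 9 lower calls, a threshold of 0.01 left 12 higher and 7 lower, and leaving out libraries gave 13 to 26 higher and 8 to 23 lower. The HOXA share of HOX FPKM in vector was 97.6% after quantile normalization, against 97.8%.

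With the replicate number as a block, HOX genes called lower came to 1 and all-gene calls to 2050 higher and 1987 lower. The deviations of same-numbered libraries correlated at -0.274, -0.069 and 0.255, and those of other pairs at -0.375 to 0.389. Deviations within a group are tied to one another, so these values cannot exclude a shared day or batch. Under the block HOXA11 and PKNOX1 (adjusted p = 0.0715 and 0.0856, limma) lost their calls, and no other named call changed.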

Other observations

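Other called members of the lists, all chosen after their values were seen, were the following. In the retinoic acid pathway, CRABP2, a binding protein that carries retinoic acid to the nucleus, was at 1.49 ± 0.52 FPKM with vector and 2.56 ± 0.375 FPKM with RNF186 (SD, n = 3 each; log2 change 0.53, limma adjusted p = 0.0138). That call was lost on leaving out vector replicate 1 (0.0555) or 3 (0.0514), or the RNF186 library of number 3 (0.0542), and with no filter (0.0813). RDH11, a retinal reductase, was at 62.2 ± 0.901 and 76.4 ± 4.01 FPKM (0.29, 0.00146). RARA, a retinoic acid receptor, was lower at 6.37 ± 0.311 and 5.11 ± 0.591 FPKM (-0.27, 0.0235), a call lost when vector replicate 1 (0.0825) or 3 (0.0582) or RNF186 replicate 1 (0.0898) or 3 (0.0645) was left out, and with no filter (0.0742). RARB and CYP26A1, genes that retinoic acid induces in many cell types, were at 0.06 ± 0.0361 and 0.113 ± 0.0404 FPKM and at 0.02 ± 0.0173 and 0.01 ± 0.0173 FPKM, with overlapping groups.

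Among Polycomb genes, CBX6 was higher at 5.10 ± 0.465 and 6.89 ± 0.685 FPKM (log2 change 0.37, limma adjusted p = 0.00688), and RYBP at 12.7 ± 0.111 and 15.6 ± 1.19 FPKM (0.28, 0.00706). PHF19, an accessory subunit of PRC2, was lower at 18.7 ± 0.725 and 15.2 ± 0.946 FPKM (-0.28, 0.0048). Whether these changes bear on the HOX genes was not tested.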
